A study of Mus musculus with 2 samples.

Results

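The 10 osteoclast effector and fusion genes *Acp5*, *Ctsk*, *Mmp9*, *Siglec15*, *Oscar*, *Ocstamp*, *Dcstamp*, *Calcr*, *Atp6v0d2* and *Rufy4* were described in spatial transcriptomes of mouse fracture calluses. They were chosen by name as genes that osteoclasts use to fuse and to resorb bone, and make up 10 of the 19430 genes in the tables. Calluses of distal tibia fractures were collected 10 days after injury from control mice (*Nf1*[+/flox], with no Cre named in the label) and Nf1Postn mice (*Postn*-cre; *Nf1*[flox/-]), both about 8 weeks old and both carrying a floxed *Nf1* allele. In Nf1Postn mice, Cre driven by the periostin promoter deletes the floxed allele in periosteal cells and their descendants, and the other allele is null in every cell, so osteoclasts, which come from blood-forming cells, keep 1 allele unless the Cre is active in them. Decalcified calluses of both genotypes were embedded in the same block, and each of the 2 Visium sections holds 1 callus of each genotype. The labels call the sections biological replicates, but neither they nor the methods say whether the sections came from different mice. The sections were therefore not counted as separate animals, no test between genotypes was run, and values are given per section.

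Osteoclasts are multinucleated cells formed by fusion of myeloid precursors under the signals M-CSF and RANKL. They attach to mineralized matrix, acidify the space beneath them with a vacuolar proton pump, and secrete proteases that digest collagen. In a healing fracture they remove calcified cartilage and remodel the woven bone that replaces it, and *Mmp9* is known for its part in resorbing cartilage where vessels invade it.

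A Visium spot captures probe pairs from a small area that can hold several cells, and unique molecular identifiers (UMIs) count those probe pairs. The control held 1700 spots in section 1 and 1778 in section 2, with 13562254 and 12122419 UMIs. The Nf1Postn callus held 1341 and 1556 spots, with 3462224 and 5984157 UMIs, and its median depth per spot was 2030.0 and 3239.8 UMIs against 7053 and 5718 in the control. Levels are pooled CPM, a gene's UMIs scaled to a common total over the spots compared, and their exact 95% intervals cover counting error only. The pooled muscle list (*Ckm*, *Acta1*, *Myh4*, *Ckmt2*, *Tnnt3*) held 10595 and 15257 CPM in the control sections and 48358 and 86813 CPM in the Nf1Postn sections, so muscle in the sectioned tissue differed with genotype. Genes are not compared with each other by level, because each has its own probe pair, and fewer osteoclasts cannot be told apart from less RNA per osteoclast. A spot can also hold other cells, and what they add to these levels was not tested.

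Promoter sequence in the reference table (RefSeq, GRCm38.p6, 250 bases before to 50 after a transcript start) was found for 5 of the 10 genes, with 8 promoters in all. *Mmp9*, *Ocstamp*, *Dcstamp*, *Atp6v0d2* and *Siglec15* had no entry. Since the 10 genes varied together across the callus, the promoters were searched on both strands for short motifs of factors known in osteoclast gene control. These were AP-1 (TGANTCA), the M-box of the MITF family (TCATGTG), PU.1 (GAGGAA) and NFAT (TGGAAA), of which AP-1 and the M-box can share bases. Of all 32851 promoters in the table, 7.81% held the AP-1 letters, 3.77% the M-box, 28.3% PU.1 and 21.4% NFAT. Promoters of the 4 genes with a match are shown 5′ to 3′ with matches in capitals, and for *Acp5* the only 1 of its 3 promoters with a match is shown.
Acp5 (chr9:22130549-22130848, minus strand): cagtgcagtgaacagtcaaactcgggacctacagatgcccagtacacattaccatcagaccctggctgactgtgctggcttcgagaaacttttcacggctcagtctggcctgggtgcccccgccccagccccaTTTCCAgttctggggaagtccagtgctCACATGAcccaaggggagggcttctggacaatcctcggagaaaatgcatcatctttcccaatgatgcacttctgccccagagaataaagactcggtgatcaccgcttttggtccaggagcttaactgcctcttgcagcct
Ctsk (chr3:95498960-95499259, plus strand): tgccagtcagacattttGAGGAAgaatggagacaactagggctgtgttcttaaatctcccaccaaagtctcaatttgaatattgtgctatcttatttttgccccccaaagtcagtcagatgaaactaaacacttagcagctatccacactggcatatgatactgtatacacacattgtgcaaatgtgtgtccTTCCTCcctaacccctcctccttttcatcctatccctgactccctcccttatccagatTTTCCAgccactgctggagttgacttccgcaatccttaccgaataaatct
Oscar (chr7:3616108-3616407, minus strand): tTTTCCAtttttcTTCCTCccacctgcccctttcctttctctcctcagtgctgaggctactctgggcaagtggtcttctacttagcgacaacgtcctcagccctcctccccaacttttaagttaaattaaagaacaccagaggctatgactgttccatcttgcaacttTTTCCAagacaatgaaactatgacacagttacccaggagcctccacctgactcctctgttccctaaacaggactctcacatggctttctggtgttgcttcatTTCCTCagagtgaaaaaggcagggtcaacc
Rufy4 (chr1:74125291-74125590, plus strand): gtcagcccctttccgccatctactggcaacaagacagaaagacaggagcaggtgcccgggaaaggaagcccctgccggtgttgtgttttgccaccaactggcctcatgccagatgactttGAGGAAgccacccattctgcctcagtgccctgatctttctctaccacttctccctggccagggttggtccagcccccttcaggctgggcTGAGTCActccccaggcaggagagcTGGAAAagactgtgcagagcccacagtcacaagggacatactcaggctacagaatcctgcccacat

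The *Acp5* promoter held 1 M-box and 1 NFAT match, and none of the other 7 promoters searched held the M-box letters. *Ctsk* held 2 PU.1 matches and 1 NFAT match, *Oscar* 2 of each, and *Rufy4* 1 each of AP-1, PU.1 and NFAT. Both *Calcr* promoters held none of these letters. No base lay in more than 1 match, and a match says only that the letters are present. On mm39, *Mmp9* (chromosome 2, 164782700 to 164797771) and *Ocstamp* (chromosome 2, 165235680 to 165242326) lay 437908 bases apart, and the other 8 genes lay on chromosomes of their own.

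The genes were lower in the Nf1Postn callus in both sections, except *Calcr*. Summed over the 10, the level was 7683 CPM (7636 to 7729.7) in control section 1 and 6429 (6383 to 6474) in control section 2, against 3642 (3578 to 3706) and 1627 (1594 to 1659) in the Nf1Postn sections. The log2 ratio of Nf1Postn over control was -1.08 in section 1 and -1.98 in section 2, a pooled 3.00-fold decrease. The sections thus shared the direction and differed in size, and the Nf1Postn sections stood further apart than the control sections.

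**Figure D1:**
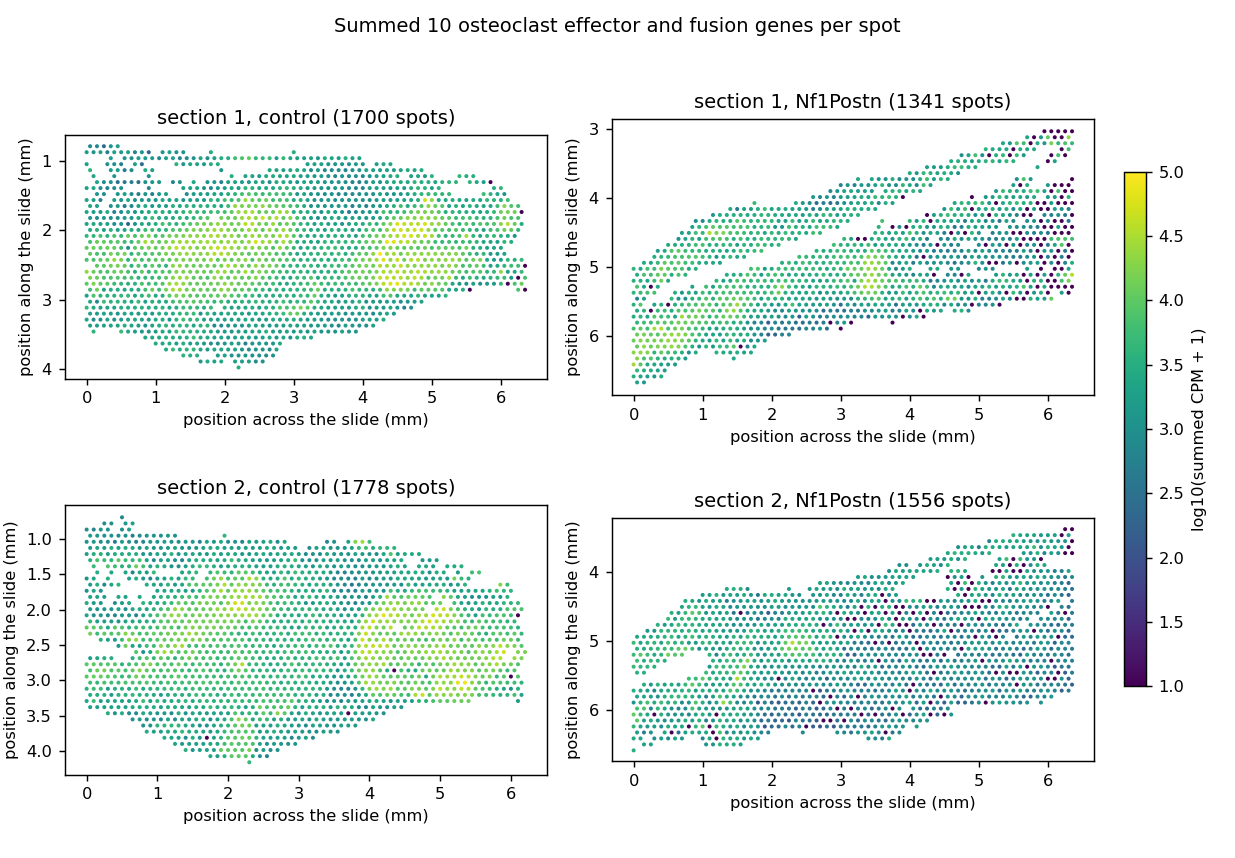
Each point is a spot at its position (mm) in section 1 (top) or section 2 (bottom), for the control (left) and Nf1Postn callus (right), and color gives log10 of the summed CPM of the 10 genes plus 1. Among spots with at least 1000 UMIs, 24.5% and 19.7% of control spots and 7.37% and 0.970% of Nf1Postn spots in sections 1 and 2 reached 10000 summed CPM. Read by eye, the high control spots lie in patches, and no callus center was computed.

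In single spots with at least 1000 UMIs, the median summed level was 3629.8 CPM in control section 1 and 3958 in section 2, against 2640.0 and 1110.1 in the Nf1Postn sections. The gap was wider in the highest spots. The 99th percentile was 45182 and 40794 CPM in the control sections and 23674 and 9916 in the Nf1Postn sections. Spots at or above 10000 CPM were 739 of 3350 in the control (22.1%, exact binomial interval 20.7 to 23.5) and 97 of 2569 in Nf1Postn (3.78%, 3.07 to 4.59), of which 83 lay in section 1. These intervals treat spots as independent, although neighboring spots were correlated, and do not cover the spread between sections. By section the Nf1Postn shares were 7.37% and 0.970%, both outside the pooled interval. When these spots were thinned to 1000 UMIs each, which leaves out the 45 and 83 shallower control and 215 and 113 shallower Nf1Postn spots, 63.4% and 63.3% of control spots and 50.2% and 28.3% of Nf1Postn spots held an *Acp5* UMI. Over all spots at full depth the shares were 94.4% and 95.6% in control and 65.2% and 56.0% in Nf1Postn.

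Among the secreted and lysosomal effectors, *Acp5*, which encodes tartrate-resistant acid phosphatase, was at 2583 and 2142 CPM in the control sections and 1011 and 386 CPM in the Nf1Postn sections. Its log2 ratio was -1.35 (-1.40 to -1.30) in section 1 and -2.47 (-2.53 to -2.41) in section 2. *Ctsk*, which encodes the collagen-degrading protease cathepsin K, was at 3156 and 2886 CPM in control and 1772 and 891 CPM in Nf1Postn. Its difference was smaller than that of *Acp5* in both sections, at log2 ratios of -0.83 (-0.87 to -0.79) and -1.70 (-1.74 to -1.65). *Mmp9*, which encodes a gelatinase, was at 1732 and 1232 CPM in control and 745 and 299 CPM in Nf1Postn, with log2 ratios of -1.22 and -2.04. No interval of these 3 effectors in a control section overlapped one in an Nf1Postn section. The intervals cover counting error only, and how many of all genes did the same was not counted.

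*Atp6v0d2*, which encodes a subunit of the osteoclast proton pump, was at 58.5 and 49.9 CPM in the control sections and 43.6 and 16.7 CPM in the Nf1Postn sections. The interval of the higher Nf1Postn section (36.9 to 51.2) overlapped that of control section 2 (46.0 to 54.0), and the log2 ratio was -0.42 (-0.68 to -0.17) in section 1 and -1.58 (-1.90 to -1.27) in section 2. The ratio of section 1 was the nearest to 0 among the 9 genes that were lower in Nf1Postn in both sections.

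Among the receptors, *Siglec15*, which encodes a sialic acid-binding receptor that signals with DAP12, was at 40.4 and 32.2 CPM in control and 17.6 and 6.02 CPM in Nf1Postn. *Oscar*, the collagen-binding costimulatory receptor, was at 16.7 and 13.1 CPM in control and 8.95 and 6.18 CPM in Nf1Postn, with log2 ratios of -0.90 and -1.08. *Calcr*, the receptor through which calcitonin halts resorption, was at 3.47 and 3.96 CPM in control and 3.75 and 2.01 CPM in Nf1Postn. It rested on only 47 and 48 UMIs in control and 13 and 12 in Nf1Postn. Its log2 ratio was 0.12 (-0.89 to 1.03) in section 1 and -0.98 (-2.03 to -0.05) in section 2, so a difference was not detectable at this depth in section 1, and the control and Nf1Postn sections overlapped.

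The fusion genes *Ocstamp* and *Dcstamp* encode membrane proteins needed for precursors to merge. *Ocstamp* was at 38.8 and 27.2 CPM in control and 13.6 and 6.52 CPM in Nf1Postn, and its log2 ratio was -1.51 (-1.98 to -1.08) in section 1, the lowest of the 10 in that section. *Dcstamp* was at 19.6 and 13.4 CPM in control and 8.66 and 5.18 CPM in Nf1Postn. *Rufy4*, which encodes a protein linked to lysosome and autophagosome traffic, was at 33.7 and 28.5 CPM in control and 16.5 and 7.69 CPM in Nf1Postn, with log2 ratios of -1.03 and -1.89.

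**Figure D2:**
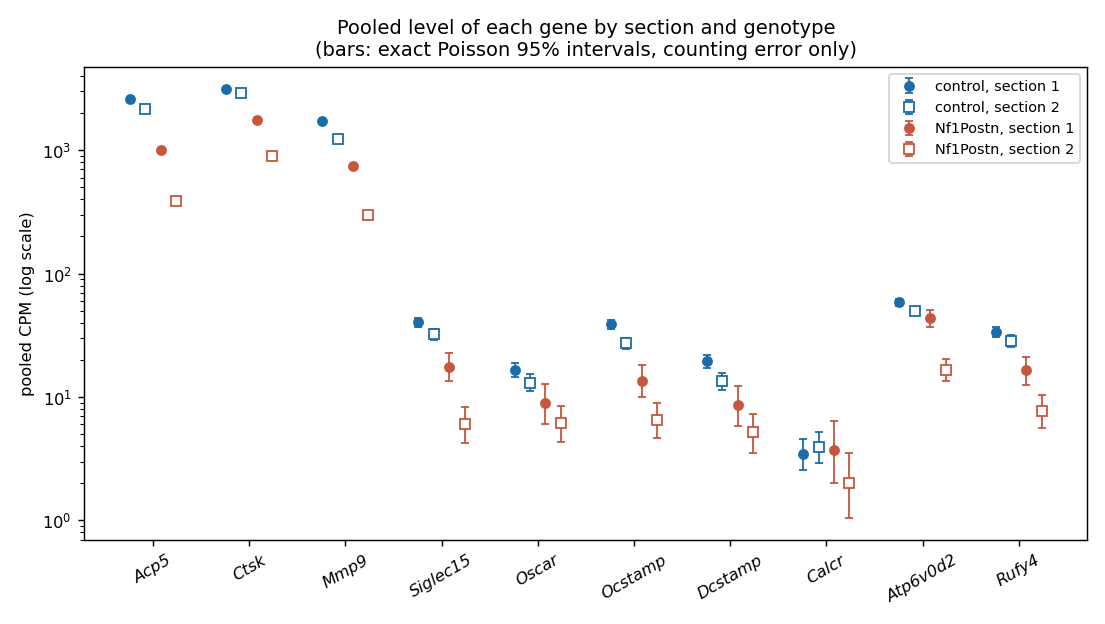
Pooled level (CPM, log axis) of each gene in the 4 libraries, with control in blue and Nf1Postn in red, section 1 filled and section 2 open, and bars as exact Poisson 95% intervals that cover counting error only. Nf1Postn lies under control in the same section for each gene but *Calcr* in section 1. For every gene the Nf1Postn value of section 2 is the lowest of the 4.

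Of the 10 genes, 6 were at least 2-fold lower in Nf1Postn in both sections (*Acp5*, *Mmp9*, *Siglec15*, *Ocstamp*, *Dcstamp* and *Rufy4*), where 1.58% of the 11851 genes that reached 50 UMIs per section were. None was at least 2-fold higher in both sections, where 4.21% of genes were. The median pooled log2 ratio was -1.45 over the 10 genes and -0.09 over all genes tested.

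The size of the difference changed when muscle-rich tissue was left out. After the 6 regions with at least 50000 CPM of the muscle list were left out, 3089 control and 926 Nf1Postn spots remained. In these, the summed level was 8146 and 6903 CPM in the control sections and 5024 and 2948 CPM in the Nf1Postn sections, log2 ratios of -0.70 (-0.73 to -0.66) and -1.23 (-1.27 to -1.19). The pooled summed fold was 1.96 in place of 3.00, and only *Acp5* remained at least 2-fold lower in both sections, 1 of 10 genes, where 0.324% of 11421 genes did. *Acp5* was 2.02-fold and 3.30-fold lower there, *Ocstamp* 1.96-fold and 2.13-fold, and *Mmp9* 1.74-fold and 2.39-fold. *Atp6v0d2* was 59.1 against 61.9 CPM in section 1, with a log2 ratio of -0.07 (-0.39 to 0.25).

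Other genes of the osteoclast had median ratios nearer 0. Of 10 genes for osteoclast differentiation, 0 were at least 2-fold lower and 0 higher in both sections, and their median log2 ratio was -0.36. *Tnfrsf11a*, the receptor for RANKL, was at 41.0 and 35.9 CPM in control and 27.2 and 18.7 CPM in Nf1Postn, and *Nfatc1*, the main transcription factor of the lineage, was at 34.0 and 34.1 against 30.6 and 23.4 CPM. The M-CSF receptor gene *Csf1r* was at 149 and 158 CPM in control and 127 and 76.2 CPM in Nf1Postn. Other genes of this list went the other way. *Traf6* (log2 ratios of 0.16 and 0.18) and *Ppargc1b* (0.36 and 0.62) were higher in Nf1Postn in both sections. *Trem2*, *Tyrobp*, *Mitf* and *Tfec* were higher in section 1 and lower in section 2.

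Of 12 genes for acid secretion and attachment, 0 were lower and 1 was higher at the same threshold, with a median log2 ratio of -0.43. The gene that was higher was *Car2*, which encodes a carbonic anhydrase that red cells also carry, at 50.8 and 36.8 CPM in control and 119 and 74.2 CPM in Nf1Postn. The globin genes *Hbb-bs* and *Hba-a2* were higher too, *Hbb-bs* at 95.3 and 172 CPM in control and 1101 and 975 CPM in Nf1Postn, and their part in the *Car2* value was not tested. *Tcirg1*, another subunit of the osteoclast proton pump, had log2 ratios of -0.44 and -0.91, and the integrin gene *Itgb3* -0.44 and -0.89.

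Of the 4 signals that drive or restrain osteoclast formation, 0 passed 2-fold in both sections in either direction. Their median log2 ratio was -0.92. The M-CSF gene *Csf1* had log2 ratios of -0.50 and -1.18, while *Il34* went the other way at 0.61 and 0.61. *Tnfsf11*, which encodes RANKL, was at 39.5 and 32.9 CPM in control and 24.3 and 15.2 CPM in Nf1Postn, and its decoy receptor gene *Tnfrsf11b* was at 26.6 and 18.9 against 16.2 and 9.53 CPM. The macrophage list had 0 of 6 tested genes past 2-fold in both sections in either direction, with a median log2 ratio of -0.31. Its summed levels were 677 and 853 CPM in control and 732 and 597 CPM in Nf1Postn. In section 2 alone, *Cd68* (-1.09) and *Gpnmb* (-1.07) were more than 2-fold lower. Of 5 osteoblast genes, 3 were at least 2-fold lower in both sections, as were 4 of 5 cartilage genes, and their part in the lower level of the 10 genes was not tested. The neutrophil list had 0 of 7 tested genes past 2-fold in both sections in either direction, with a median log2 ratio of 0.53. Its summed levels were 326 and 177 CPM in control and 625 and 208 CPM in Nf1Postn. In section 1 alone, *S100a8* (1.04), *Camp* (1.27), *Ltf* (1.44) and *Elane* (1.16) were more than 2-fold higher, and the other tested genes of the list were not. Of muscle satellite cell genes, *Pax7* (log2 ratios of 2.71 and 2.08) and *Myf5* (2.60 and 1.45) had too few UMIs for a call. *Megf10* had 0.58 and -0.22. What these cells add to the levels of the 10 genes, *Mmp9* and *Calcr* included, was not tested.

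Spots were grouped into 14 regions by expression, with the 10 genes and all listed genes left out, and the regions are named here by their leading genes. Region 3 (746 spots) had the highest summed level with both genotypes pooled, 19256 CPM in section 1 and 16199 in section 2. By genotype its level was 19529.6 and 16827 CPM in control and 6697 and 3702 CPM in Nf1Postn. Its leading genes included *Acp5*, *Siglec15*, *Mmp9*, *Ocstamp*, *Slc9b2* and the osteocyte gene *Dmp1*. The authors' supporting values label 95.8% of its section 1 control spots as woven bone. With both genotypes pooled, all 10 genes were at least 2-fold higher in region 3 than in all other spots in both sections. Of all genes tested, 1.81% were. Within Nf1Postn alone this did not hold for all 10. *Acp5* had log2 ratios of 1.02 and 1.32 by section, *Ctsk* 0.82 and 1.14, and *Mmp9* 0.87 and 1.35. *Rufy4* had -0.46 (-5.79 to 2.08) and 0.06 (-5.27 to 2.61), from 1 UMI in region 3 in each section. At similarly low counts, of 5 UMIs or fewer there, *Siglec15* had 1.08 and 2.55, *Ocstamp* 1.48 and 2.79, and *Oscar* 2.13 and 0.38. Region 3 was picked because its summed level of these 10 genes was the highest, and its spots were grouped by the rest of the same transcriptomes. The count is therefore a description and not a test.

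In the control, region 3 held 24.5% of all UMIs but 68.8% of *Acp5*, 67.1% of *Mmp9*, 67.8% of *Siglec15*, 65.0% of *Ocstamp* and 68.3% of *Dcstamp* UMIs. *Ctsk* was less confined, with 57.9% of its UMIs there, and *Calcr* had 51.6% of its 95 UMIs there. With both genotypes pooled, the log2 ratio of region 3 over the rest was 2.93 for *Acp5*, 2.20 for *Ctsk* and 1.80 for *Calcr*. Other listed osteoclast genes had smaller pooled ratios, with 1.73 for *Tnfrsf11a*, 1.64 for *Itgb3*, 1.23 for *Csf1r*, 1.21 for *Tcirg1* and 0.76 for *Nfatc1*. Of the same differentiation list, *Trem2* had -0.42 and *Mitf* -0.05. Of the macrophage list, *Cd68*, which osteoclasts also express, had 1.06, and the other 6 genes lay between -1.78 (*Gpnmb*) and -0.43 (*C1qb*).

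Outside region 3, the level of the summed members in the control was next highest in region 7 (leading genes *Angptl7* and *Cilp2*; 6923 and 11484 CPM by section) and region 4 (*Hbb-bs*, *Hba-a2* and *Igkc*; 7199 and 9034 CPM), which changed order between the sections. It was 5925 and 6756 CPM in region 8, led by the hypertrophic cartilage genes *Col10a1* and *Ihh*. In Nf1Postn it was 6603 and 2276 CPM in region 7 and 6537 and 3837 CPM in region 4. It was 6697 and 3702 CPM in Nf1Postn region 3, so region 4 was higher in section 2. In region 2, led by the muscle genes *Myh7* and *Ckmt2*, it was 1299 and 1606 CPM in control and 722 and 687 CPM in Nf1Postn. Even in region 2, 50.7% of spots held an *Acp5* UMI and 77.4% a *Ctsk* UMI, against 1.06% with a *Siglec15* and 1.06% with an *Ocstamp* UMI. Median depth was 3714 UMIs per spot there and 8009 in region 3, where 99.5% held *Acp5*, 45.8% *Siglec15* and 43.7% *Ocstamp*, so a UMI of *Acp5* or *Ctsk* alone did not mark a spot of region 3.

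Few Nf1Postn spots were grouped into region 3, the woven bone region. Region 3 held 407 and 309 control spots but 11 and 19 Nf1Postn spots. The grouping did not correct for depth beyond scaling to CPM, and median depth was 2642 UMIs per spot in Nf1Postn and 6370 in control. What depth adds to these spot counts was not tested. In the control, 63.7% of the summed UMIs and 24.5% of all UMIs lay in region 3, against 4.55% and 2.20% in Nf1Postn. The largest share of the Nf1Postn summed UMIs, 26.9%, lay in region 4, led by globin and immunoglobulin genes, with 394 of the 2897 Nf1Postn spots. Next came 15.9% in region 6 (*Retnla* and *Chrne*, 413 spots) and 14.2% in region 1 (*Crabp1* and *Gpnmb*, 68 spots).

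Within region 3, the summed level and the 3 effectors were lower in the few Nf1Postn spots. The summed level had log2 ratios of -1.54 (-1.67 to -1.42) and -2.18 (-2.32 to -2.05) in sections 1 and 2. *Acp5* had -1.81 and -2.71, *Mmp9* -1.74 and -2.26, and *Ctsk* -1.28 and -1.81. These values rest on 166 and 117 *Acp5* UMIs of Nf1Postn, and *Siglec15*, *Oscar*, *Ocstamp*, *Dcstamp*, *Calcr* and *Rufy4* had 5 UMIs or fewer there in each section, while *Atp6v0d2* had 10 in section 1 and 0 in section 2. *Calcr* had log2 ratios of 1.66 (-1.45 to 3.64) and 0.99 (-2.15 to 3.03) from 2 UMIs in each section. In section 1 the intervals of *Oscar* (-2.56 to 1.31), *Ocstamp* (-3.72 to 0.12), *Dcstamp* (-4.14 to 0.78) and *Atp6v0d2* (-1.40 to 0.56) also held 0. In section 2 those of *Oscar* (-7.45 to 0.39), *Ocstamp* (-2.52 to 0.37) and *Dcstamp* (-7.62 to 0.21) did. In region 8, compared in section 2 only, 27 Nf1Postn spots had log2 ratios of -3.34 (-3.88 to -2.85) for *Acp5*, -3.08 (-3.67 to -2.55) for *Mmp9* and -1.91 (-2.20 to -1.63) for *Ctsk*.

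Region 1 went the other way. It was led by *Crabp1*, *Gpnmb* and *Ptgfr*, 90.9% of its section 1 control spots carry the authors' label of ossifying perichondrium, and it held 735 control and 68 Nf1Postn spots. There, the summed level was higher in Nf1Postn, with log2 ratios of 1.03 (0.95 to 1.10) in section 1 and 0.20 (0.12 to 0.27) in section 2. *Mmp9* had 1.29 (1.12 to 1.45) and 0.48 (0.29 to 0.66), *Ctsk* 0.92 (0.81 to 1.02) and 0.19 (0.09 to 0.29), and *Acp5* 1.03 (0.88 to 1.18) and 0.02 (-0.14 to 0.18). *Atp6v0d2* rested on 16 and 19 Nf1Postn UMIs, with log2 ratios of 1.28 (0.42 to 2.05) and 0.43 (-0.34 to 1.13). *Dcstamp* had 1.45 (-0.28 to 2.85) and 2.64 (1.42 to 3.80) from 5 and 11 Nf1Postn UMIs, and *Siglec15*, *Oscar*, *Ocstamp* and *Rufy4* had 9 or fewer in each section. Their ratios changed sign between the sections, at 1.54 and -0.61 for *Siglec15*, -0.31 and 0.59 for *Oscar*, 0.91 and -0.28 for *Ocstamp*, and 1.44 and -0.62 for *Rufy4*. *Calcr* had 0 Nf1Postn UMIs in region 1. The difference between regions 1 and 3 was not tested.

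**Figure D3:**
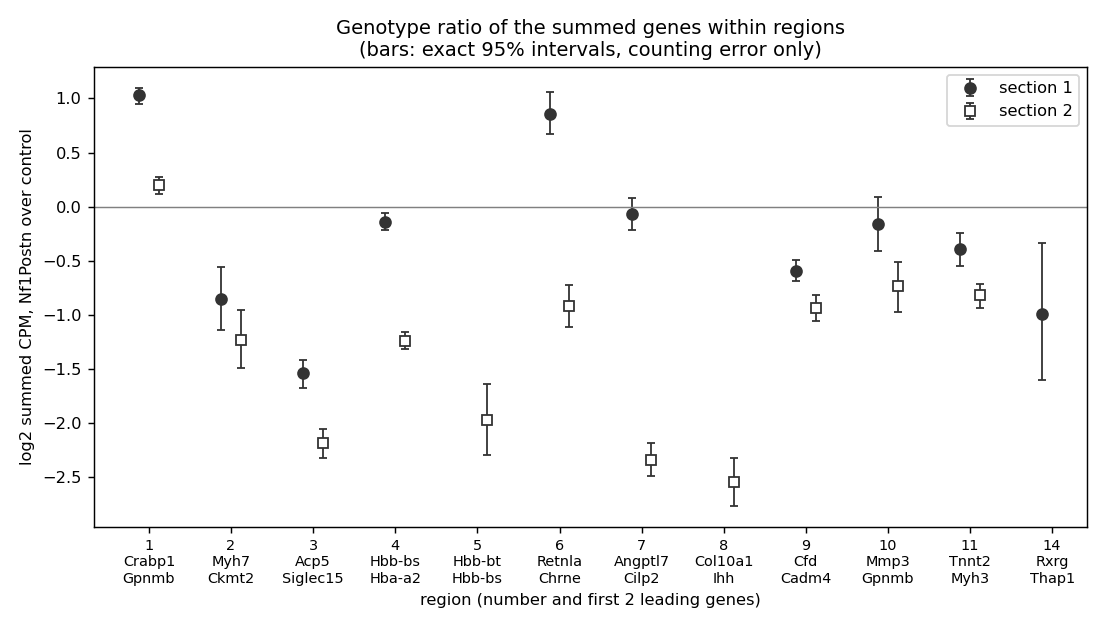
The log2 ratio of summed CPM, Nf1Postn over control, in each region with enough spots of both genotypes, section 1 filled and section 2 open, with exact 95% intervals that cover counting error only. Both sections lie above 0 in region 1 (1.03 and 0.20), both lie under -1.5 in region 3 (-1.54 and -2.18), and region 6 differs in direction between the sections.

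In the control of section 1, the summed level peaked at an intermediate distance from the fracture plane. The sum is carried by *Ctsk*, *Acp5* and *Mmp9*, with 77793, 61006 and 38423 of its 182126 control UMIs, so the other genes are given on their own below. SpatialTime, the distance to that plane that the authors assigned to skeletal spots, ran here from 0 to 25, and only its spot labels were taken from their supporting values. From SpatialTime 0 to 4 the summed level was 2428 CPM, and from 5 to 9 it was 6248. It was highest from 10 to 14 (16225 CPM) and lower again from 15 to 19 (11641) and from 20 to 25 (7302). The highest single value lay at SpatialTime 13, at 18223 CPM (17836 to 18617), and the steepest step lay between 8 (6579 CPM) and 9 (13139 CPM).

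Of the 9 genes with enough UMIs, 9 were at least 2-fold higher at 10 to 14 than at 0 to 4, where 4.56% of 9725 genes were. *Mmp9* was 9.09-fold higher, *Siglec15* 8.83-fold, *Acp5* 8.55-fold and *Ocstamp* 7.99-fold, while *Atp6v0d2* was 5.66-fold and *Ctsk* 4.92-fold higher. At 20 to 25, *Ocstamp* was 2.99-fold lower than at 10 to 14 and *Acp5* 2.51-fold. *Dcstamp* was highest at 15 to 19 (38.9 CPM), close to its level at 10 to 14 (38.7 CPM), and the other 9 genes were highest at 10 to 14. *Calcr* had 24 UMIs at 10 to 14 and 5 at 15 to 19.

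The authors split woven bone spots of section 1 control by a pseudotime into a low class, here 63 spots, and a high class, here 312 spots. The summed level was 15011 CPM in the low and 21009 CPM in the high class, a log2 ratio of -0.49 (-0.53 to -0.44). Of the 9 genes with enough UMIs, only *Oscar* was at least 2-fold lower in the low class, from 8 UMIs, where 3.87% of genes were. The ratio was -0.53 for *Acp5* and -0.31 (-0.90 to 0.23) for *Ocstamp*, so a difference of *Ocstamp* was not detectable at this depth.

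Distance from cartilage was measured in the control from each spot to the nearest spot of the cartilage regions 8 and 12. Spots of the muscle-rich regions were kept, and what tissue type adds to the ratios by distance was not tested. At 100 to 300 µm the summed level was 2.32-fold that of spots over 1000 µm away in section 1 and 1.93-fold in section 2. Of the 9 genes with enough UMIs, 2 were at least 2-fold higher at 100 to 300 µm than over 1000 µm away in both sections, where 1.37% of genes were. These were *Mmp9*, at 2.49-fold and 2.45-fold, and *Ocstamp*, which had the largest pooled ratio, at 3.42-fold (3.07-fold and 4.22-fold by section, from 27 and 13 UMIs over 1000 µm away). In steps of 100 µm, *Mmp9* was highest at 800 µm in section 1 (2910.5 CPM) and at 100 µm in section 2 (1885 CPM). *Ocstamp* was highest at 500 µm (82.6 CPM) and at 200 µm (40.1 CPM). The profiles differed between sections. In section 1 the summed level was 7963 CPM at 100 µm, 13095 CPM at 800 µm and 6018 CPM at 1100 µm. In section 2 it was highest beside cartilage, at 9267 CPM at 100 µm, and stayed between 6231 and 7649 CPM from 400 to 900 µm. The position of the peak therefore does not hold across the sections, whereas in both sections the level from 1100 to 1500 µm was lower than at any distance from 100 to 900 µm.

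**Figure D4:**
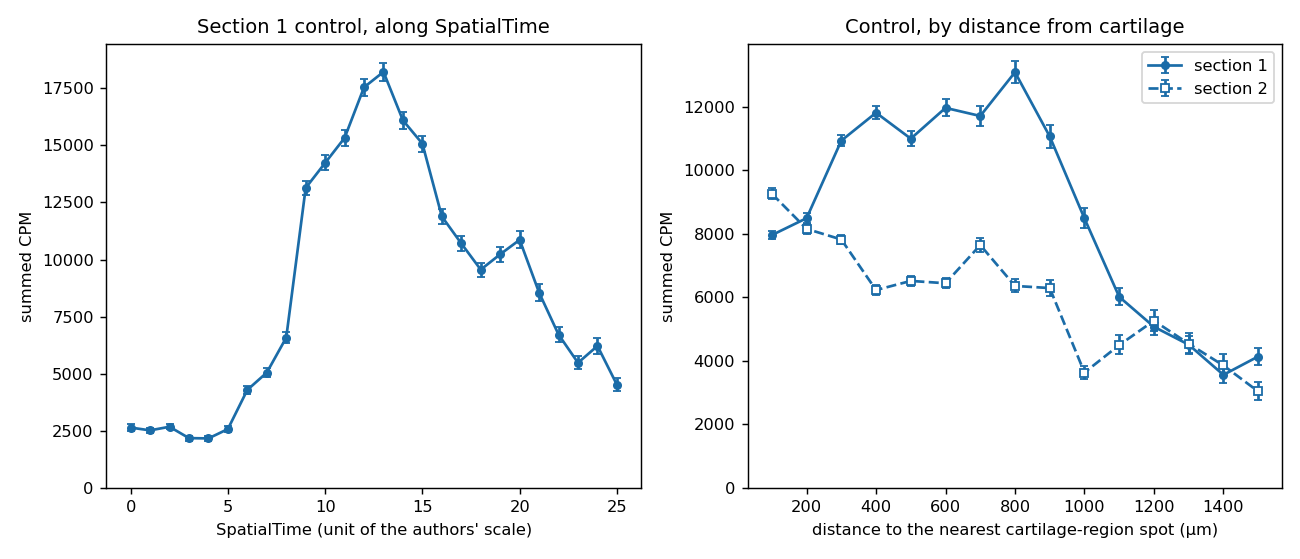
Summed CPM of the 10 genes in the control, along SpatialTime in section 1 (left) and by distance to the nearest cartilage-region spot in both sections (right), with exact Poisson 95% intervals as bars. Along SpatialTime the level is at most 2674 CPM from 0 to 4 and reaches 18223 CPM at 13, and by distance section 1 peaks at 800 µm and section 2 at 100 µm.

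The genes also differed in their proportions, expressed as UMIs per 1000 *Acp5* UMIs with exact intervals. *Ctsk* was at 1072 (1058 to 1086) in region 3 of the control and at 2157 (2096 to 2221) in region 1. This held in each section, at 1059 and 1094 in region 3 and 2141 and 2171 in region 1. It was also high in region 12 (2058), led by the cartilage genes *Ucma* and *Scrg1*, and in region 9 (1861), led by *Cfd* and *Cadm4*, but at 1169 in region 8.

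*Mmp9* had a higher proportion in region 8, the hypertrophic cartilage region, than in region 3, at 866 (824 to 909.9) against 615 (605 to 624) per 1000 *Acp5* UMIs. By section it was 946 and 712 in region 8 and 637 and 575 in region 3. Region 8 was the highest of the regions with both sections pooled but in neither section alone, where region 7 in section 1 (964, 770.1 to 1205) and region 11 in section 2 (759, 660.2 to 872) lay above it with overlapping intervals. Inside both cartilage regions it was 841 and 688 by section, and in section 1 it stayed at 823 (787 to 859.9) at 100 µm and was 606 (587 to 626) at 200 to 300 µm, while in section 2 it was 570.2 already at 100 µm. Over 1000 µm away it was 775 in section 1 and 459 in section 2, so the sections parted there. The proportion of *Atp6v0d2* to *Acp5* was lower beside cartilage than farther away. It was at 15.6 and 16.9 per 1000 *Acp5* UMIs inside cartilage and at 17.4 and 12.7 at 100 µm. At 700 to 1000 µm it was 29.7 and 31.3, and over 1000 µm away 26.2 and 25.5. Its level in CPM was higher at 100 to 300 µm than over 1000 µm away, at 2.24-fold and 1.59-fold.

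**Figure D5:**
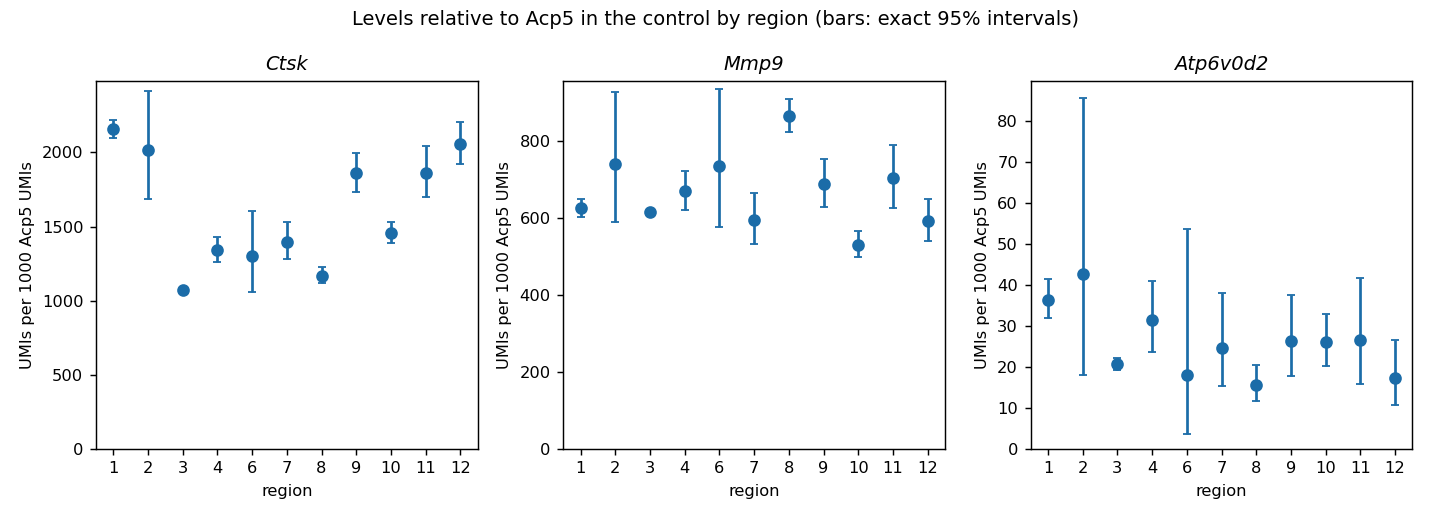
UMIs of *Ctsk*, *Mmp9* and *Atp6v0d2* per 1000 *Acp5* UMIs in each control region with at least 100 *Acp5* UMIs, both sections pooled, with exact 95% intervals as bars. *Ctsk* is at 1072 in region 3, 2157 in region 1 and 2058 in region 12, and *Mmp9* is at 866 in region 8, the highest of these pooled values but not of either section alone.

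In Nf1Postn as a whole, *Ctsk* was at 1752 and 2306 per 1000 *Acp5* UMIs in the sections, against 1222 and 1347 in the control. *Atp6v0d2* was at 43.1 and 43.3 against 22.6 and 23.3. *Oscar* was at 8.85 (6.01 to 12.6) and 16.0 (11.2 to 22.1) against 6.45 (5.63 to 7.35) and 6.12 (5.21 to 7.16), so that only section 2 lay clear of the control. Within region 3 the *Ctsk* proportion was also higher in Nf1Postn, at 1742 (1502 to 2023) against 1072, and within region 1 it was 2197 (2016 to 2395) against 2157.

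Over the 1655 and 1695 control spots with at least 1000 UMIs, the genes varied together. Correlations were taken over residuals that account for depth, and spots share a section, neighbors and probes, so no p is given. The mean r over the 45 pairs was 0.38 in section 1 and 0.33 in section 2, and the mean of both, 0.35, was 0.15 when spots were thinned to 1000 UMIs, so its size depends on depth. *Acp5* with *Ctsk* had r of 0.96 and 0.94, *Acp5* with *Mmp9* 0.91 and 0.88, and *Acp5* with *Atp6v0d2* 0.62 and 0.47. *Calcr* had the lowest mean r with the others, at 0.12 and 0.09, and had the fewest UMIs, which bounds the r that can be seen.

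The summed genes were clumped. Spots 100 µm apart had a correlation of 0.79 and 0.74 in the control sections and 0.71 and 0.57 in the Nf1Postn sections. In the control it was -0.00 in both sections at 900 µm, against 0.03 and 0.12 in the Nf1Postn sections. *Calcr* showed next to no clumping, at 0.03 and 0.04 at 100 µm in control, at its low counts.

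Among 5924 other genes that reached 500 UMIs per section, those most like the summed 10 in the control were *Mt3* (r of 0.84 and 0.77 by section), a metallothionein gene, and *Ckb* (0.82 and 0.73), which encodes brain-type creatine kinase. *Serpine2* (0.68 and 0.60), *Jdp2* (0.64 and 0.61), which encodes an AP-1 family factor, *Dmp1* (0.61 and 0.57), *Slc37a2* (0.62 and 0.51), *Arsb* (0.60 and 0.51), *Nrp2* (0.55 and 0.48), *Mt1* (0.46 and 0.57) and the proton pump gene *Atp6v0c* (0.57 and 0.44) followed. *Mt3* and *Ckb* were among the top 3 for each of the 10 genes, including *Calcr* (mean r of 0.14 for *Mt3* and 0.15 for *Ckb*). *Ckb* ranked first for *Ocstamp*, *Dcstamp* and *Calcr*, and *Mt3* first for the other 7. Both were lower in Nf1Postn, with pooled log2 ratios of -1.34 for *Mt3* and -1.24 for *Ckb*.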

How the data were processed

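Visium libraries for formalin-fixed tissue were made from 2 sections, each with a callus of both genotypes. Per the labels, Space Ranger 1.3.0 and mm39 were used by the authors, who deposited tables of raw UMIs for each spot. The unit of these deposited values is expected counts, called UMIs in the text, since the authors' tables hold 10 entries per section with non-whole values. The entry that names no gene (6.81e-05% and 3.76e-05% of UMIs) was left out. The deposited genotype labels and spot positions were used as they are, and 5 of 6380 spots had no genotype and entered no comparison. A total of 2711 barcodes occur in both sections, since barcodes name grid positions. The authors' supporting values gave cluster, SpatialTime and pseudotime class of section 1 control spots only. They were joined by barcode and checked through *Col10a1*, which matched within 0.01 (log2) in 375 of 375 spots.

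Levels are pooled CPM with exact Poisson, conditional binomial or binomial 95% intervals. No test was run, since the sections may come from the same mice. A group at 0 was set to 3 UMIs for bounds. Calls needed a 2-fold difference in each section compared, among genes with at least 50 UMIs per section (section 1 alone: 50 UMIs in the spots compared). Regions came from log2(CPM + 1) centered per section, 20 principal components, 15 neighbors and Leiden clustering (leidenalg 0.10.2, resolution 0.5) on 16818 genes, without the 10 genes and the listed genes. Genotypes were compared in regions with at least 20 spots of each in total and at least 10 in a section. Cartilage regions were those with at least 0.5 times the highest cartilage-list CPM. That rule, the muscle threshold of 50000 CPM and the level of 10000 CPM were chosen after values were seen. Correlations used Pearson residuals (theta 100). Named were the 10 genes, listed genes, the 10 genes most like the sum and 3 most like each gene, and the leading genes of regions, which have the highest ratio to the remaining spots among genes reaching 500 UMIs. The 10 genes, the lists and the comparisons were chosen with earlier results of these data known. Alternatives were a section left out, thinning to 1000 UMIs or only spots that deep, mean log2(CPM + 1), the median over genes, the sum without *Mmp9*, TMM factors (edgeR 4.0.16 in R 4.3.3), other thresholds and bins, resolutions 0.3 and 1.0, and all genes kept in clustering. Ratios, intervals, residuals and thinning were tested on simulated data. Scripts used Python 3.11.15, numpy 2.4.6 and scipy 1.17.1.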

Additional observations from a re-analysis of the deposited data

Results flagged for a closer look

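The summed 10 genes had genotype ratios of opposite sign in different regions. Listed here are regions with the same sign in both sections. Region 6 was not one of them, with log2 ratios of 0.86 (0.67 to 1.06) in section 1 and -0.92 (-1.11 to -0.72) in section 2. The difference between regions was not tested, because the sections may come from the same mice. The log2 ratio of Nf1Postn over control was above 0 in region 1 (1.03 and 0.20 in sections 1 and 2) and under 0 in region 3 (-1.54 and -2.18), region 2 (-0.85 and -1.23), region 4 (-0.14 and -1.24), region 7 (-0.07 and -2.34), region 9 (-0.59 and -0.94), region 10 (-0.16 and -0.73) and region 11 (-0.39 and -0.82). In section 1 the intervals of region 7 (-0.22 to 0.08) and region 10 (-0.41 to 0.09) held 0. The values rest on 24 and 44 Nf1Postn spots in region 1, 11 and 19 in region 3 and 10 in each section of region 10, and in region 2 on 18 control spots in section 2.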

How the results depend on the processing

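Over 14 results, 81 alternative values were computed, between 2 and 10 for each result. None of the 81 reversed a direction, which counts and the control level of the summed genes could not do. Of these values, 61 moved by no more than the spread between sections (or, in section 1 alone, the counting interval; for counts, a factor of 1.5) and 20 by more. That spread comes from the 2 sections themselves, so values with a section left out are no independent check. For the mean r and clumping, which average the sections, such values could not move past it. Leaving out muscle regions, chosen after seeing the data, took the members at least 2-fold lower in both sections from 6 to 1. The same count was 4 after thinning, 4 by mean log2(CPM + 1), which has *Ctsk* and *Atp6v0d2* in place of *Siglec15*, *Ocstamp*, *Dcstamp* and *Rufy4*, and 8 with TMM factors. The summed genotype ratio ran from -1.98 to -1.08 with a section left out and was -0.97 without muscle regions. With both genotypes pooled, region 3 over the rest (2.56) was 2.29 after thinning and 2.93 by mean log2(CPM + 1). At other resolutions the value is for the cluster with the highest level, 2.41 at resolution 0.3 and 2.35 at resolution 1.0. At resolution 1.0 that cluster was not the match of region 3. With a section left out, region 3 over the rest was 2.47 to 2.59. The SpatialTime ratio (2.74) was 2.38 after thinning, 1.82 by mean log2(CPM + 1), 3.04 as the median over genes, 2.64 without *Mmp9* and 2.23 between parts when the range was split in 3. The mean r of pairs (0.35) was 0.24 on log2(CPM + 1), 0.15 after thinning and 0.31 without *Mmp9*, and clumping (0.76) was 0.80 on log2(CPM + 1). The distance ratio (1.09) was 0.63 after thinning. The log2 ratio of *Ctsk* per *Acp5* outside over inside region 3 (0.73) was 0.72 to 0.72 with a section left out and 0.73 in spots of at least 1000 UMIs. Of the 10 genes most like the sum, 4 were shared on log2(CPM + 1). The cause was not tested for any of these. The region 1 ratio (0.58) ran from 0.20 to 1.03 with a section left out and was 0.95 at resolution 1.0. No paired analysis was possible because the comparison comes from no test: the sections may come from the same mice, and the ratios are given within each section instead. Depth limits *Calcr* most, with 25 UMIs in Nf1Postn.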

Other observations

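The 5 spots without a genotype held 9 UMIs of the summed 10 genes, 2574 CPM with an exact upper limit of 4886 CPM.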
